A study of Mus musculus with 9 samples.

Results

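The genes described here are the type I interferon Ifnb1, the receptor chains Ifnar1 and Ifnar2 and a list of interferon-stimulated genes, 43 genes in all of the 55450 in the count table. They were taken from that table by gene symbol, with no filter on their values, from a list chosen with earlier results of these data known. RNA was sequenced from the WT macrophage line IMM, which comes from mouse and is immortalized, at 0 min without treatment and after 30 and 60 min of lipopolysaccharide (LPS) at 100 ng/mL. LPS is a cell wall component of Gram-negative bacteria. Each time had 3 libraries, 9 in all, which the design text calls biological replicates. The 3 groups thus shared the line, the genotype and the medium and differed in LPS and time. The labels describe no unstimulated library at 30 or 60 min, so LPS, time and handling cannot be told apart. How the line was immortalized is not given in the sources used here. The libraries hold total RNA without ribosomal RNA, so a count can come from unspliced as well as mature transcripts.

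Macrophages sense LPS through Tlr4. From endosomes, Tlr4 signals through the adaptor TRIF (Ticam1) to the kinase Tbk1, which activates the transcription factor Irf3, and Irf3 together with NF-kB turns on Ifnb1. Secreted interferon then binds the receptor formed by Ifnar1 and Ifnar2, and the kinases Jak1 and Tyk2 activate Stat2, which acts with Irf9 on the interferon-stimulated response element (ISRE) in the promoters of interferon-stimulated genes. The products of these genes include enzymes that degrade or edit viral RNA, sensors of foreign nucleic acid, and GTPases that act on membranes around pathogens.

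Promoters of 5 members are shown because their courses differ or because they stand at the start of the pathway. These are the ligand Ifnb1, Rsad2 and its neighbour Cmpk2, and Ifit1 and Irgm1, which like Rsad2 hold the ISRE core. Rsad2 had the largest change among the 34 members that passed a filter on low counts. Each run is the 250 bases before the RefSeq start, read 5′ to 3′ on the gene's strand, from GRCm38.p6. Capitals mark matches on either strand to the ISRE core, which is GAAA, a pair of bases of any kind and GAAA again, or to an NF-kB site. The windows are chr4:88522795-88523044 on the minus strand for Ifnb1, chr12:26456453-26456702 on the minus strand for Rsad2, chr12:26468965-26469214 on the plus strand for Cmpk2, chr19:34640639-34640888 on the plus strand for Ifit1 and chr11:48871421-48871670 on the minus strand for Irgm1.
Ifnb1: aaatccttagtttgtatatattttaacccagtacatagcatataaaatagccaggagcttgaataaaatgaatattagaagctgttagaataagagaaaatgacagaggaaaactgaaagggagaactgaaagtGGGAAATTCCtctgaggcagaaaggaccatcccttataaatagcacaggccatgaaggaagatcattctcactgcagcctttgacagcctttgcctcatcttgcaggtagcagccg
Rsad2: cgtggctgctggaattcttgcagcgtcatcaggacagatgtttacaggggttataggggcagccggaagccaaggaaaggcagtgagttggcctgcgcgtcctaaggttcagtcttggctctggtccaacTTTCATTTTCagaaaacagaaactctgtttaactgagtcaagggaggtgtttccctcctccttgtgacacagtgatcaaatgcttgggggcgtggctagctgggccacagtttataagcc
Cmpk2: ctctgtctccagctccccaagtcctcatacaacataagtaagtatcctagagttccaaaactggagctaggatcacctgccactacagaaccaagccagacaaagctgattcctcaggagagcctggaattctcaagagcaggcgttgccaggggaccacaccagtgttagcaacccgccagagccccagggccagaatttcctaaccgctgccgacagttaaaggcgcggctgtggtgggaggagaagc
Ifit1: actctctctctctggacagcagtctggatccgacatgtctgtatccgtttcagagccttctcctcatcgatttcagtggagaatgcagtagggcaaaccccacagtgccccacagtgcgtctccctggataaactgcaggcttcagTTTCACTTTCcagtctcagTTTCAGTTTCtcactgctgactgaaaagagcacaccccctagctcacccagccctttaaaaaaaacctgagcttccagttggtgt
Irgm1: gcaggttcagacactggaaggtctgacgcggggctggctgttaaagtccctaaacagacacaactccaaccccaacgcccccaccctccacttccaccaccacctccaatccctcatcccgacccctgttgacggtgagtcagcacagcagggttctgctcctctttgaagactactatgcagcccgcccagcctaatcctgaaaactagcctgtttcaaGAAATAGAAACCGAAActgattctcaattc

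The match in Ifnb1 is to the NF-kB site and begins 116 bases before the start. The match in Rsad2 is to the ISRE core, at -120 counted from the start, and Ifit1 holds that core at -104 and -85. In Irgm1 the matches at -30 and -24 overlap. Cmpk2 held no match to the ISRE core, the NF-kB site, the GAS element TTCNNNGAA or the AP-1 element TGANTCA.

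RefSeq promoter windows of 250 bases before to 50 after the start were matched for 33 of the 43 members. The ISRE core was found in 18 of these 33 (54.5%), against 3.99% of 27025 genes with a window. The GAS element was in 12 members (36.4%), against 9.55% of all genes. The NF-kB site was in 7 members (21.2%), against 9.55%, and AP-1 in 8 members (24.2%), against 8.97%. Holding the ISRE core did not go with a change in 1 direction: of the 15 tested members with the core, Rsad2 was higher and Eif2ak2, Irgm1 and Trim21 lower at 60 min than at 0 min, by the test described below. Of the 13 tested members without it, Ifnar1 and Ifnar2 were higher and Adar, Ifit2 and Samhd1 lower. Ifi204, Parp9 and Parp14, also higher at 60 min, had no window and are in neither set. The median log2 change at 60 min was 0.046 with the core and 0.007 without it. Bases after the RefSeq start were found in the gene's own transcripts for 26 of the 33 members, and the start of the rest is uncertain. Such a match describes letters in a window, and binding was not measured.

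Libraries held between 26867400 and 30402306 counts, with 13848 to 14035 genes at 10 or more. Values are given as CPM, the count relative to a library total that was scaled by edgeR's TMM factor, so that 10 counts stood for 0.324 to 0.367 CPM. All 8 macrophage markers were detected, led by Csf1r with a highest group mean of 644 CPM. Their summed level was 1780 to 1850 CPM at 0 min, 1940 to 1950 CPM at 30 min and 1990 to 2100 CPM at 60 min, a sum that includes the LPS-responsive gene Cd14. Markers of plasmacytoid dendritic cells, which are strong producers of type I interferon, summed to at most 0.386 CPM in any library, with Ly6d and Klk1 at 0. The mast cell markers were at 0, and those of B cells, neutrophils, fibroblasts and epithelial cells summed to at most 0.419 CPM in any library. T cell markers summed to at most 3.95 CPM, mainly from Lck, with Cd3e and Cd8a at 0, and endothelial markers to at most 2.24 CPM. Of the dendritic cell markers all 5 were detected, with sums of 16.9 to 17.8 CPM at 0 min, 16.5 to 18.4 CPM at 30 min and 13.9 to 15.8 CPM at 60 min, most of it from Batf3 and Zbtb46. Zbtb46 averaged 6.43 ± 0.363 CPM at 60 min and 8.01 ± 0.384 CPM at 0 min without overlap, and the part of these markers in the results was not tested. In bulk RNA, a change in the number of cells that express a gene and a change in RNA per cell cannot be told apart.

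Before LPS, most of the list was already transcribed. At 0 min, 29 of 43 members averaged above 1 CPM and 17 above 10 CPM. To compare genes, levels were also set per length, as CPM per kilobase of exon. The highest at 0 min was Trim25, a ubiquitin ligase that acts on the RNA sensor RIG-I, at 28.2 ± 0.678 (SD, n = 3). Next in level per length came Samhd1, which degrades deoxynucleotides and thereby restricts retroviruses, at 24.7 ± 0.447, and Bst2, a membrane protein that tethers budding virions, at 17.0 ± 1.75. The receptor chains followed, with Ifnar2 at 15.1 ± 0.628 and Ifnar1 at 13.2 ± 0.275. Bst2 and Ifnar2 overlapped within their SD, while the other neighbours among these 5 did not. Other members spread over a wide range per length before LPS, from Oas1a at 6.21 ± 1.12 and Oasl1 at 5.70 ± 0.33 to Rsad2 at 0.705 ± 0.073, Isg15 at 0.453 ± 0.252 and Ifit1 at 0.239 ± 0.0353.

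At the low end, 9 members did not pass the filter on low counts and 34 were tested. The GTPase gene Iigp1 had 0 counts in all 9 libraries, which allows a level of up to 0.0116 CPM, taking 3 counts over all libraries as the limit. Ifi44 and the Z-form nucleic acid sensor Zbp1 had 1 count each in all, both at 30 min. Such limits cover counting error only.

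**Figure D1:**
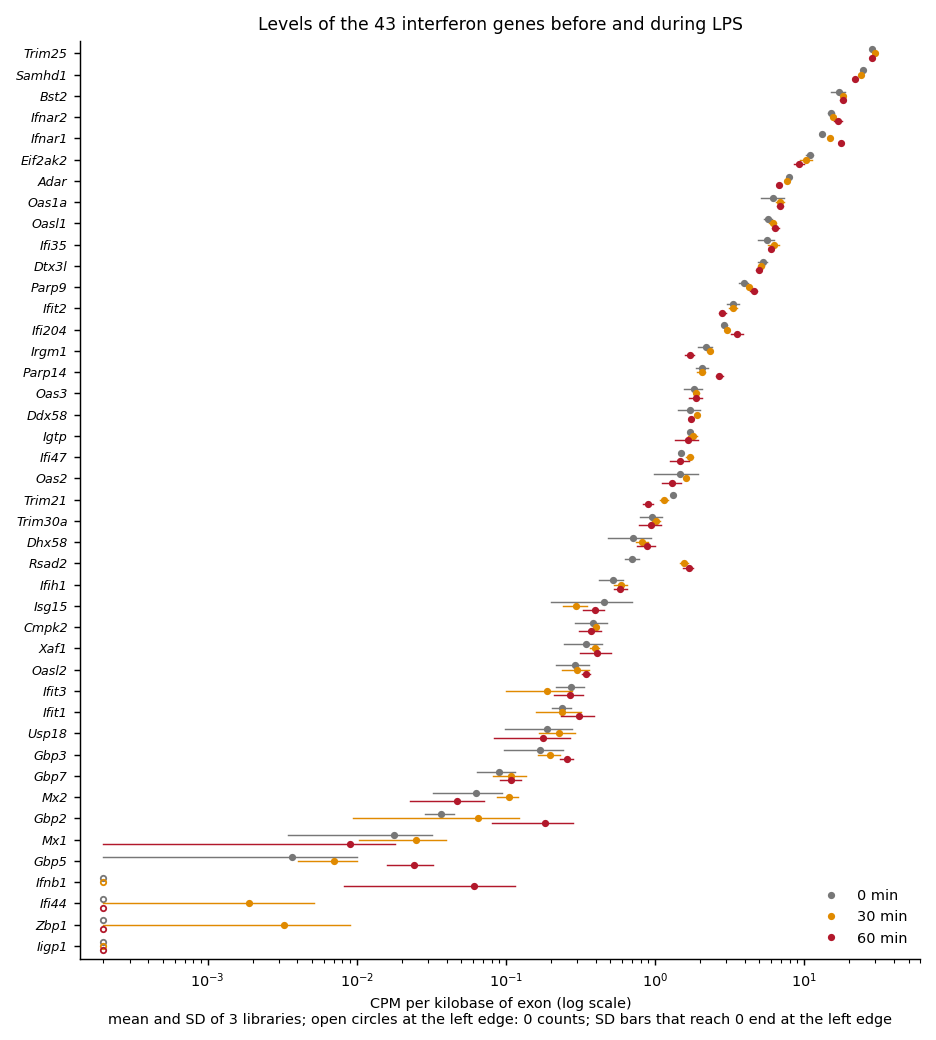
Mean level and SD of 3 libraries of each of the 43 genes at 0, 30 and 60 min, as CPM per kilobase of exon on a log axis, ordered by the level at 0 min. Trim25 and Samhd1 head the order at 28.2 and 24.7 at 0 min, Iigp1 is at 0 throughout, and Rsad2 shows the widest gap between 0 min and the later times among the 34 tested genes.

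The ligand was barely detected. Ifnb1 (ENSMUSG00000048806.4, chromosome 4, 88522025 to 88522774, minus strand, mm10) had 0 counts in every library at 0 min and at 30 min, and 2, 2 and 0 counts in the 3 libraries at 60 min. The 0 counts at 0 min allow up to 0.0354 CPM over that group. The 60 min libraries averaged 0.046 ± 0.0398 CPM (SD, n = 3), and the third overlapped the earlier times. An exact two-sided permutation test of 60 min against 0 min gave p = 0.4, where 3 against 3 libraries cannot go below 0.1. Of 17 other type I interferon genes, 16 were at 0 in all libraries, and Ifnz had 3 counts in all.

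Both chains of the receptor were called higher at 60 min than at 0 min, Ifnar1 without overlap of the libraries and Ifnar2 with overlap. Ifnar1 (ENSMUSG00000022967.13, chromosome 16, 91485238 to 91507441, plus strand) measured 80.3, 77.1 and 78.1 CPM at 0 min, 91.1, 86.4 and 87.0 CPM at 30 min and 103, 105 and 108 CPM at 60 min. All 30 min libraries lay above all 0 min libraries, and all 60 min libraries above both. Its mean was 105 ± 2.63 CPM at 60 min and 78.5 ± 1.63 CPM at 0 min, a log2 change of 0.42 ± 0.04 (SE), or 1.34-fold (edgeR quasi-likelihood test with Benjamini-Hochberg adjustment, adjusted p = 6.72e-07). At 30 min the change was 0.17 ± 0.04 (adjusted p = 0.0104), and leaving out replicate 1 of 30 min moved this adjusted p to 0.0519. From 30 to 60 min it rose further, by 0.26 ± 0.04 (adjusted p = 0.00018).

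Ifnar2 (chromosome 16, 91372783 to 91405589, plus strand) measured 50.1, 52.6 and 48.4 CPM at 0 min, 52.0, 51.0 and 52.9 CPM at 30 min and 58.2, 52.3 and 58.7 CPM at 60 min. The second 60 min library lay within the range of 0 min. The log2 change at 60 min was 0.16 ± 0.05 (SE), or 1.12-fold (edgeR adjusted p = 0.0236), and that at 30 min 0.05 ± 0.05 (adjusted p = 0.658). The call at 60 min was lost with totals that were not TMM-scaled (adjusted p = 0.157) and when replicate 1 or 3 of 0 min or of 60 min was left out (adjusted p 0.0675 to 0.115). Ifnar2 shares 315 exon bases with Gm21970 on the same strand.

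At 30 min the 2 calls among the members were both higher, and at 60 min the calls went both ways. At 30 min against 0 min, 2 of 34 tested members were higher and 0 lower (5.88%), while 8.18% of the 14246 genes tested were called, 4.84% higher and 3.35% lower. At an unadjusted p under 0.05, 3 members were higher and 0 lower. DESeq2 and limma-voom likewise called 2 members higher and 0 lower. At 60 min against 0 min, 6 members were higher and 6 lower (17.6% each), against 13.3% and 11.7% of all genes, or 35.3% of the members and 25% of all genes in either direction. At 60 min against 30 min, 2 were higher and 3 lower (14.7%), against 8.87% and 7.65%, or 16.5% of all genes. The median log2 change of the tested members was 0.09 at 30 min and 0.07 at 60 min, and that of all tested genes 0.0062 and 9e-04.

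Scaling affected the direction of calls over all genes. With TMM, 59.1% of calls at 30 min and 53.1% at 60 min against 0 min were higher, and 53.7% of those at 60 min against 30 min. With plain totals these shares were 45.9%, 30.1% and 37.5%, and 3 members instead of 6 were called higher at 60 min against 0 min. Ifnar2, Ifi204 and Parp9 lost their calls.

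Of the tested members, Rsad2 was the only one past 2-fold at 30 or 60 min against 0 min. For members that were not called, the 95% interval of the change lay within 2-fold in either direction for 30 of 32 at 30 min, Ifit3 and Usp18 being the exceptions. It did so for 19 of 22 at 60 min, the exceptions being Ifit1, Usp18 and Gbp3. These exceptions had few counts. The libraries did not overlap for 8 tested members at 30 min against 0 min, with 5 higher and 3 lower, against 14.1% and 11.7% of all tested genes. At 60 min against 0 min they did not overlap for 13 members, 7 higher and 6 lower, against 19.6% and 18.7%. At 60 min against 30 min they did not overlap for 12 members, 3 higher and 9 lower, against 17.1% and 16.7%.

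**Figure D2:**
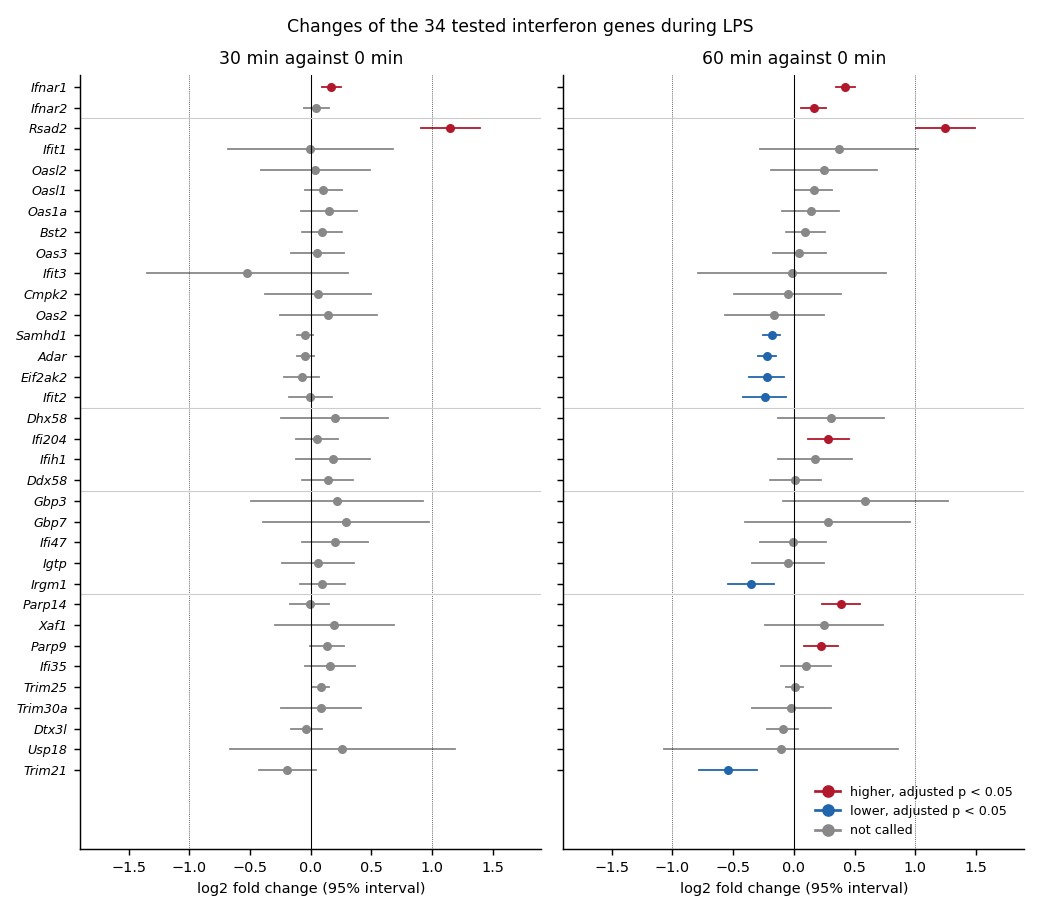
Log2 fold change with its 95% interval for the 34 tested genes at 30 min (left) and 60 min (right) against 0 min, grouped by role. Rsad2 stands alone near 1.15 and 1.25, the 6 lower genes at 60 min lie between -0.18 and -0.54, and the widest intervals belong to genes with few counts such as Ifit3 and Usp18.

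Among the antiviral effectors, 14 of 17 were tested, and at 60 min 1 was higher and 4 lower than at 0 min. The higher one was Rsad2 (viperin), a radical SAM enzyme whose product stops viral RNA synthesis (ENSMUSG00000020641.16, chromosome 12, 26442746 to 26456452, minus strand). It measured 3.37, 2.74 and 3.05 CPM at 0 min, 7.06, 6.24 and 7.04 CPM at 30 min and 6.84, 7.87 and 7.06 CPM at 60 min. Every library with LPS lay above every library without, and the later times overlapped each other. The log2 change was 1.15 ± 0.11 (SE), or 2.22-fold, at 30 min (edgeR adjusted p = 8.06e-06) and 1.25 ± 0.11, or 2.38-fold, at 60 min (adjusted p = 1.11e-06). From 30 to 60 min it was 0.10 (adjusted p = 0.6). The calls at both times against 0 min were kept under all 17 alternative settings.

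The 4 effectors that were lower act on RNA, on translation or on nucleotides. Samhd1 measured 223, 231 and 225 CPM at 0 min, 217, 222 and 218 CPM at 30 min and 200, 195 and 203 CPM at 60 min. Its 60 min libraries lay below all others, with a log2 change of -0.18 ± 0.03 (SE) against 0 min (edgeR adjusted p = 0.000646) and -0.14 ± 0.03 against 30 min (adjusted p = 0.00857). Adar, which deaminates adenosine in double-stranded RNA, measured 63.7, 63.3 and 64.0 CPM at 0 min, 60.3, 62.1 and 62.9 CPM at 30 min and 55.2, 54.2 and 54.2 CPM at 60 min. It fell by 0.22 ± 0.03 on the log2 scale at 60 min against 0 min (adjusted p = 0.00023) and by 0.18 ± 0.03 against 30 min (adjusted p = 0.0022). The groups of Adar did not overlap in any comparison. Adar shares 1365 exon bases with Chrnb2 on the opposite strand, and all values of Samhd1 were fractional, as estimated counts are where reads match several genes.

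Eif2ak2 (PKR), a kinase that halts translation on binding double-stranded RNA, measured 57.5, 51.9 and 56.8 CPM at 0 min, 54.1, 56.3 and 47.3 CPM at 30 min and 46.0, 44.7 and 51.7 CPM at 60 min. The log2 change at 60 min against 0 min was -0.22 ± 0.07 (SE; edgeR adjusted p = 0.0258), and the 60 min libraries lay just below those of 0 min. The call was lost when replicate 1 or 3 of 0 min, or replicate 1 or 2 of 60 min, was left out (adjusted p 0.08 to 0.116). Ifit2, which binds RNA and limits translation, measured 13.1, 11.8 and 14.2 CPM at 0 min, 12.5, 12.7 and 13.9 CPM at 30 min and 11.0, 10.5 and 11.7 CPM at 60 min. Its log2 change at 60 min was -0.24 ± 0.08 (adjusted p = 0.049), just past the threshold, and 10 of 17 alternatives lost the call (adjusted p 0.0505 to 0.194), 7 of them by leaving out a library. Each library had this effect except replicate 2 of 0 min and replicate 3 of 60 min.

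The other effectors were not called in any comparison. Ifit1, which binds viral RNA at the cap, had 19, 15 and 21 counts at 0 min, 20, 23 and 11 at 30 min and 30, 23 and 19 at 60 min. Ifit3, its partner, had 16, 13 and 12 counts at 0 min, 6, 8 and 14 at 30 min and 13, 17 and 11 at 60 min. The groups of both genes overlapped between all times. Of the oligoadenylate synthetases, which activate RNase L, Oas1a averaged 12.9 ± 0.618 CPM at 60 min and 11.7 ± 2.11 CPM at 0 min, and Oas3 13.3 ± 1.38 CPM and 12.9 ± 1.81 CPM. Oas2 had 216, 116 and 231 counts at 0 min, 208, 201 and 203 at 30 min and 166, 146 and 196 at 60 min. Its second 0 min library was the lowest of the 9, and without it Oas2 was lower at 60 min than at 0 min (log2 change -0.41, edgeR adjusted p = 0.0247). Oasl1, which in mouse restrains Irf7, averaged 16.7 ± 0.913 CPM at 60 min and 14.9 ± 0.862 CPM at 0 min without overlap, but was not called (edgeR adjusted p = 0.117). Oasl2 and Bst2 had log2 changes of 0.25 and 0.10 at 60 min (adjusted p = 0.417 and 0.401). The ubiquitin-like modifier Isg15, below the filter, had 10, 4 and 16 counts at 0 min, 5, 7 and 7 at 30 min and 7, 9 and 10 at 60 min. The Mx GTPases were below it too, and Mx1 had at most 4 counts in a library. Mx2 is a polymorphic pseudogene in the annotation. It had 7, 3 and 10 counts at 0 min, 9, 11 and 12 at 30 min and 3, 8 and 4 at 60 min. All 60 min libraries of Mx2 lay below all 30 min libraries, a ratio of 0.443 (counting interval 0.223 to 0.842). The exact two-sided permutation p was 0.1, or 0.675 after Benjamini-Hochberg adjustment over the 27 exact tests of members below the filter.

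**Figure D3:**
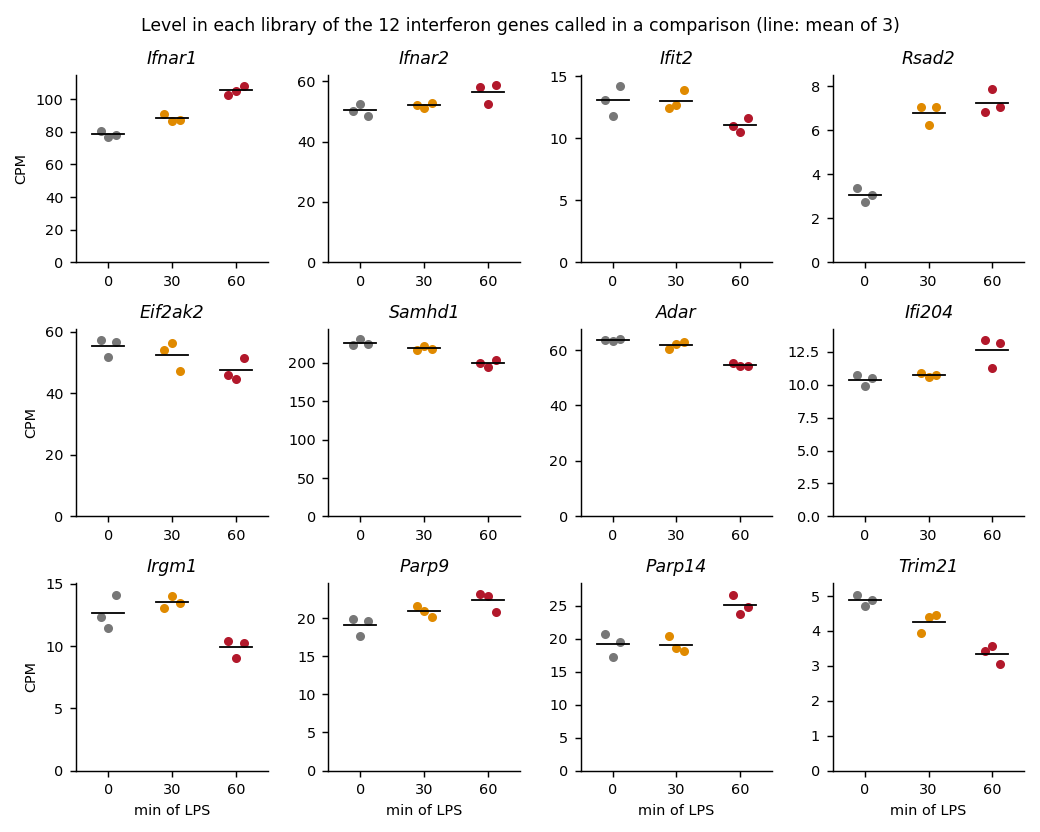
CPM in each library against minutes of LPS for the 12 genes called in at least 1 comparison, on axes that start at 0, with a line at the mean of 3 libraries. Rsad2 separates from 0 min at both later times, Ifnar1 climbs over all 3 times, and Parp14, Samhd1, Adar and Irgm1 separate at 60 min from both earlier times.

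Of the nucleic acid sensors, 4 of 5 were tested and 1 was called. Ifi204, a DNA sensor in mouse, measured 10.7, 9.87 and 10.5 CPM at 0 min, 10.9, 10.6 and 10.8 CPM at 30 min and 13.4, 11.3 and 13.2 CPM at 60 min. The 60 min libraries lay above all others. The log2 change against 0 min was 0.28 ± 0.08 (SE; edgeR adjusted p = 0.0171), which was lost with plain totals (0.0598), with DESeq2 (0.0521) and without replicate 2 of 0 min or replicate 1 or 3 of 60 min (0.0568 to 0.0875). All values of Ifi204 were fractional, and near-identical relatives make its level uncertain. The RNA sensors Ddx58 (RIG-I), Ifih1 (MDA5) and Dhx58 (LGP2) had log2 changes of 0.01, 0.17 and 0.30 at 60 min, none of which was called (adjusted p 0.952, 0.423 and 0.314).

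Of the interferon-inducible GTPases, 5 of 8 were tested and 1 was lower. Irgm1, which controls related GTPases on host membranes, measured 12.4, 11.5 and 14.1 CPM at 0 min, 13.0, 14.0 and 13.5 CPM at 30 min and 10.4, 9.05 and 10.2 CPM at 60 min. Its 60 min libraries lay below all others, with a log2 change of -0.36 ± 0.09 (SE) against 0 min (edgeR adjusted p = 0.00866) and -0.45 ± 0.09 against 30 min (adjusted p = 0.00257). Igtp and Ifi47 of the same family had changes of -0.05 and -0.01 at 60 min against 0 min (adjusted p = 0.836 and 0.978).

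The guanylate-binding proteins among the members, which attack the membranes of pathogens, had few counts. Gbp2 had 3, 2 and 3 counts at 0 min, 9, 1 and 4 at 30 min and 10, 22 and 8 at 60 min. All 60 min libraries lay above all 0 min libraries, and replicate 2 held more counts than the other two of its group together. The ratio of summed counts, relative to library totals without TMM scaling, was 4.72 at 60 min against 0 min. Its counting interval was 2.18 to 11.7, which leaves out the spread between libraries. An exact two-sided permutation test on CPM gave p = 0.1, the smallest 3 against 3 libraries can give. Below the filter Gbp2 had no edgeR test, but with no filter it was called (log2 change 2.25, adjusted p = 0.00282), as it was by DESeq2 (2.30, adjusted p = 0.0395). Gbp5 had 2, 0 and 0 counts at 0 min, 2, 1 and 1 at 30 min and 6, 5 and 3 at 60 min, a ratio of 6.6 at 60 min against 0 min (counting interval 1.52 to 59.8, exact permutation p = 0.1). Over the 27 exact tests of members below the filter, both p-values became 0.675 after Benjamini-Hochberg adjustment. Gbp3 and Gbp7 were tested, with log2 changes of 0.59 ± 0.32 and 0.28 ± 0.32 at 60 min (SE; edgeR adjusted p = 0.201 and 0.577).

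Of the regulators and the ubiquitin-like pathway, 9 of 10 were tested, and at 60 min 2 were higher and 1 lower than at 0 min. Parp14, a mono-ADP-ribosyltransferase (chromosome 16, 35832874 to 35871544, minus strand), measured 20.7, 17.3 and 19.5 CPM at 0 min, 20.4, 18.6 and 18.2 CPM at 30 min and 26.7, 23.8 and 24.9 CPM at 60 min. The earlier times overlapped, and all 60 min libraries lay above both. Its log2 change was 0.39 ± 0.07 (SE), or 1.31-fold, at 60 min against 0 min (edgeR adjusted p = 0.00138), 0.40 ± 0.07 against 30 min (adjusted p = 0.00186) and -0.01 at 30 min against 0 min (adjusted p = 0.965). Parp9, a related protein that works with the ubiquitin ligase Dtx3l, measured 19.9, 17.7 and 19.6 CPM at 0 min, 21.6, 20.9 and 20.2 CPM at 30 min and 23.2, 22.9 and 20.8 CPM at 60 min. Its log2 change at 60 min against 0 min was 0.23 ± 0.07 (adjusted p = 0.0209), lost with plain totals (0.0951) and without replicate 2 of 0 min or replicate 1 or 2 of 60 min (0.0726 to 0.0923).

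Trim21, a ubiquitin ligase and cytosolic antibody receptor, measured 5.02, 4.71 and 4.90 CPM at 0 min, 3.95, 4.41 and 4.44 CPM at 30 min and 3.44, 3.56 and 3.05 CPM at 60 min. No groups overlapped, and each later time lay below the one before. The log2 change at 60 min against 0 min was -0.54 ± 0.11 (SE; edgeR adjusted p = 0.00237), the lowest of any tested member at 60 min. At 30 min against 0 min it was -0.19 (adjusted p = 0.335), and at 60 min against 30 min -0.35 (adjusted p = 0.0504), neither of them called. Usp18, the protease that removes Isg15 and dampens the interferon receptor, had 14, 8 and 24 counts at 0 min, 13, 19 and 22 at 30 min and 16, 21 and 6 at 60 min, with overlap at all times. Xaf1, Ifi35 and Trim30a had log2 changes of 0.25, 0.10 and -0.02 at 60 min, none of them called (edgeR adjusted p = 0.469, 0.515 and 0.946). Trim25, the highest member per length, averaged 162 ± 3.9 CPM at 0 min, 172 ± 3.31 CPM at 30 min and 163 ± 2.16 CPM at 60 min, and was not called. With plain totals it was lower at 60 min than at 30 min (log2 change -0.12, edgeR adjusted p = 0.0218).

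Members that lie next to each other on a chromosome did not always move together. Rsad2 and Cmpk2, a mitochondrial nucleotide kinase, are read from opposite strands with 12751 bp between them. Cmpk2 had 41, 36 and 62 counts at 0 min, 46, 50 and 46 at 30 min and 47, 51 and 37 at 60 min, with log2 changes of 0.06 at 30 min and -0.05 at 60 min against 0 min (edgeR adjusted p = 0.909 and 0.89). Per library, the count of Rsad2 over that of Cmpk2 was 2.24, 2.17 and 1.52 at 0 min, 4.39, 3.6 and 4.24 at 30 min and 4.15, 4.55 and 5.62 at 60 min. The ratio was higher in all libraries with LPS than in all libraries without, by 1.06 on the log2 scale at 30 min and 1.28 at 60 min (exact two-sided permutation p = 0.1, the smallest possible, and 0.12 adjusted over the 12 tests of this kind). The 4 pairs of neighbours compared were chosen after their values were seen. The p-values of their ratios are thus no test of whether neighbours move together.

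Parp14 and Dtx3l lie 54966 bp apart on the same strand, and Dtx3l overlaps Parp9 by 458 exon bases on the opposite strand. The CPM of Dtx3l averaged 28.4 ± 1.06 at 60 min and 30.2 ± 2.13 at 0 min (SD, n = 3 each; log2 change -0.09, edgeR adjusted p = 0.304). The ratio of Parp14 to Dtx3l was 0.701, 0.607 and 0.6 at 0 min, 0.67, 0.617 and 0.655 at 30 min and 0.902, 0.862 and 0.89 at 60 min. It thus overlapped at the earlier times and was higher at 60 min than at 0 min in all libraries, by 0.48 on the log2 scale (exact permutation p = 0.1, adjusted 0.12). For Parp9 over Dtx3l the difference was 0.32 on the log2 scale at 60 min, and for Ifnar1 over Ifnar2, 79648 bp apart, it was 0.26, each with the same exact p.

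**Figure D4:**
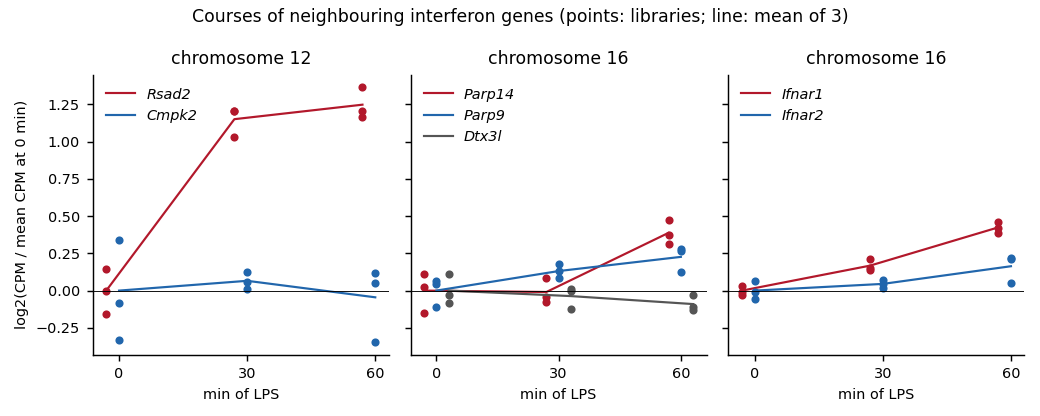
Log2 of CPM over the mean CPM at 0 min for neighbouring genes on chromosomes 12 and 16, against minutes of LPS, with points for libraries and lines through the means of 3. Rsad2 departs from Cmpk2 at 30 min, Parp14 departs from Dtx3l at 60 min, and Ifnar1 lies above Ifnar2 at 60 min.

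The members shared a pattern between the libraries at 0 min. Replicate 2 had the lowest CPM of the 3 for 29 of 34 tested members, where it was the lowest for 36.2% of all tested genes. Replicate 3 had the highest for 18 members (52.9%), against 33% of all genes. The median member lay 0.145 below the mean of its group in replicate 2 and 0.0986 above it in replicate 3, on the log2 scale. A small constant was added to both CPM values for these medians. The small positive medians of the list rest on replicate 2. Without replicate 2 of 0 min the median log2 change of the tested members was -0.01 at both 30 and 60 min, and without replicate 3 of 0 min it was 0.17 and 0.16.

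**Figure D5:**
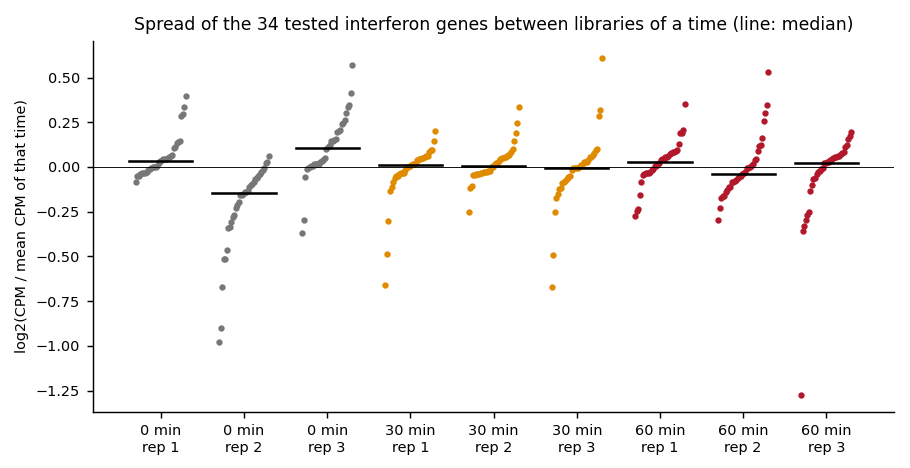
Log2 of each library's CPM over the mean CPM of its time, for the 34 tested genes, with 1 column of points per library and a line at the median. With a small constant added to both CPM values, which the points do not carry, the median was -0.145 for 0 min replicate 2 and 0.0986 for 0 min replicate 3. The medians at 30 and 60 min, computed in the same way, were between -0.0366 and 0.0296.

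Several genes of the path that leads from LPS to Ifnb1 rose. The list of 16 tested genes holds Tlr4, its co-receptors Cd14 and Ly96, and adaptors, kinases and transcription factors of interferon induction. Among these, the adaptors Mavs and Tmem173 (STING) serve sensors of RNA and DNA and do not follow Tlr4. At 30 min against 0 min, Cd14 was higher and no other gene of the list was called. By 60 min, 6 were higher than at 0 min (37.5%) and 3 lower (18.8%), against 13.3% and 11.7% of all tested genes. Their median log2 change at 60 min was 0.07, that of all tested genes 9e-04. The list was chosen with earlier results of these data known, so its shares describe the chosen genes and are no test of the pathway. The co-receptor Cd14 had log2 changes of 1.99 ± 0.09 at 30 min and 2.61 ± 0.09 at 60 min (SE; edgeR adjusted p = 2.57e-09 and 5.63e-11). Tank, which binds Tbk1, averaged 126 ± 3.26 CPM at 60 min and 55.3 ± 1.62 CPM at 0 min, a log2 change of 1.19 ± 0.05 (adjusted p = 3.2e-10). The Tbk1-related kinase Ikbke averaged 120 ± 8.65 CPM at 60 min and 56.1 ± 8.03 CPM at 0 min, a change of 1.10 ± 0.08 (adjusted p = 1.9e-07). The adaptor Ticam1, Tbk1 and the transcription factor Irf5 rose by 0.46, 0.32 and 0.22. The adaptors Ticam2, Mavs and Tbkbp1 fell by 0.31, 0.29 and 0.18. The transcription factor Irf3 averaged 18.7 ± 0.642 CPM at 60 min and 20.1 ± 1.03 CPM at 0 min, and was not called (adjusted p = 0.249).

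Of 17 tested genes of receptor signalling, 3 were higher (17.6%) and 1 lower (5.88%) at 30 min than at 0 min, against 4.84% and 3.35% of all tested genes. By 60 min, 7 were higher than at 0 min (41.2%) and 4 lower (23.5%), against 13.3% and 11.7%, with a median log2 change of 6e-04. These genes too were chosen with earlier results of these data known, so the shares are no test of the pathway. Stat2 averaged 14.6 ± 0.89 CPM at 0 min, 11.2 ± 0.293 CPM at 30 min and 7.01 ± 0.325 CPM at 60 min, and no libraries of different times overlapped. Its log2 change was -0.38 ± 0.07 at 30 min (SE; edgeR adjusted p = 0.00414) and -1.06 ± 0.08 at 60 min (adjusted p = 9.66e-08). Its partner Irf9 had a change of -0.17 at 60 min and was not called (adjusted p = 0.261). The transcription factor Irf1 rose by 2.72 ± 0.14 at 60 min (adjusted p = 2.2e-09). Socs3 and Socs1, inhibitors of cytokine receptors, rose by 3.87 and 1.97 at that time, the interferon gamma receptor chains Ifngr1 and Ifngr2 by 0.40 and 0.45, and the receptor kinases Tyk2 and Jak1 by 0.28 and 0.11. The other lower genes were the transcription factors Irf2 and Irf8, at -0.31 and -0.29, and the phosphatase Ptpn6, at -0.17 (adjusted p = 0.000646, 0.000117 and 0.00378).

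A broader list of 79 other interferon-stimulated genes, 60 of them tested, had calls in both directions at 60 min. At 30 min 6 were higher (10.0%) and 0 lower than at 0 min, against 4.84% and 3.35% of all tested genes. At 60 min 9 were higher (15.0%) and 10 lower (16.7%), near the 13.3% and 11.7% of all tested genes, with a median log2 change of -0.06. This list was likewise chosen with earlier results of these data known. The chemokine Cxcl10, Cd40, a receptor of antigen-presenting cells for a ligand on T cells, and Slfn2 led with changes of 5.65, 3.34 and 3.24 at 60 min (edgeR adjusted p = 9.62e-12, 7.56e-09 and 1.25e-09). The other higher genes were Gbp6, Ccl5, Helz2, Cd274, Ifi207 and Peli1, with changes between 0.30 and 2.08. Cxcl10 averaged 108 ± 8.65 CPM at 60 min and 2.13 ± 0.799 CPM at 0 min. The 10 lower genes were Irgm2, Rtp4, Uba7, Psmb9, Pml, Trim14, Parp11, Slfn9, Sp110 and Trim56. They included the GTPase Irgm2, at -0.94, the Isg15-activating enzyme Uba7, at -0.59, and the nuclear body protein Pml, at -0.43 (adjusted p = 0.000641, 0.00172 and 0.000203). Igtp and Irgm2 share 162 exon bases on the same strand.

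The authors' deposited tables of their own comparisons held 39 of the 43 members. In the authors' deposited table for 30 min, Rsad2 (log2 fold change 1.15, adjusted p = 4.49e-09) and Ifnar1 (0.16, adjusted p = 0.0229) passed an adjusted p under 0.05, as did 6.07% of all genes with an adjusted p in it. In the authors' deposited table for 60 min, 4 were higher and 5 lower: Ifnar1, Rsad2, Parp14 and Gbp2, and Adar, Eif2ak2, Irgm1, Samhd1 and Trim21. Ifnar2, Ifit2, Ifi204 and Parp9, called at 60 min here, did not pass in the authors' deposited table (adjusted p = 0.0648, 0.139, 0.0711 and 0.0632). Over all genes of the authors' deposited table for 60 min, 17.8% passed. Gbp2 stood at 2.30 in the authors' deposited table (adjusted p = 0.0285).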

How the data were processed

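Total RNA libraries of IMM cells at 0, 30 and 60 min of LPS were analysed, 3 per time. The authors deposited a table of expected counts per gene, estimated with RSEM and not normalized. The submitters' processing notes name build mm10, RSEM 1.3.1, STAR 2.7.0f, cutadapt 1.18, Picard 2.18.26, bcl2fastq 2.20 and DESeq2. The annotation used for counting, its strand setting and the model behind DESeq2 are not stated there. The authors also deposited tables with a log2 fold change, a score (the test statistic), a mean signal, and raw and adjusted p-values, per the file headers. Which time is on top was read from the values.

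Expected counts were rounded to whole numbers (5.04% to 5.32% of values in a library were fractional). RSEM shares reads that match several genes, so values of 8 members with fractional counts are uncertain, and those of Samhd1, Oas1a and Ifi204 were fractional in all 9 libraries. Positions and exon lengths come from GENCODE M21 (GRCm38, mm10), which holds all 55450 identifiers.

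Genes were filtered with filterByExpr (about 10 counts in 3 libraries), which left 14246, scaled with TMM and tested in a fit of all 9 libraries with time as the term, by edgeR 4.0.16's quasi-likelihood test in R 4.3.3. P-values were two-sided and adjusted by Benjamini-Hochberg over all genes tested, and a gene was called at an adjusted p under 0.05. The SE is the absolute log2 change divided by the root of edgeR's F. Members below the filter were tested by an exact two-sided permutation test on CPM. Counting intervals are exact, at 95%, and like their ratios use counts summed over the 3 libraries of a time and totals without TMM scaling. The fit was tested on simulated counts.

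Values per library are given for Ifnb1, Ifnar1, Ifnar2 and each member called in any comparison, and the other members by counts, group means or changes, with the 5 highest per length named. Of the pathway lists, genes called at 60 min against 0 min are named, with Irf3 and Irf9 added as known parts of the pathway. The members and lists were chosen with earlier results of these data known. The labels do not say what separates the replicates, so p-values measure the spread between these libraries, which may be technical in part. Library pairs of a time differed by more than sampling noise (mean chi-square per gene 4.93 to 18.3), so none was counted as a copy. Promoter windows come from RefSeq, GRCm38.p6. The alternatives were RLE size factors, plain totals, no filter, a minimum of 50 counts, DESeq2 1.42.0, limma-voom 3.58.1, only the 2 groups compared, a replicate block and leaving out each library.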

Additional observations from a re-analysis of the deposited data

Results flagged for a closer look

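The effect at 60 min differed from that at 30 min for 5 members, by the test of 60 min against 30 min itself in edgeR with Benjamini-Hochberg adjustment. Parp14 was higher by 0.40 on the log2 scale and Ifnar1 by 0.26 (adjusted p = 0.00186 and 0.00018). Irgm1, Adar and Samhd1 had differences of -0.45, -0.18 and -0.14 (adjusted p = 0.00257, 0.0022 and 0.00857). All 5 kept this call under each of the 17 alternative settings, and the groups did not overlap. Samhd1 came nearest to the threshold, at an adjusted p of 0.0499 with a library left out.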

How the results depend on the processing

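Of 19 calls of single members, 13 were kept under all 17 alternatives, 6 were lost under some and 0 reversed. Of 17 uncalled changes of the same members, 5 gained a call under some alternative, all at 60 min against 30 min (Eif2ak2, Ifi204, Ifit2, Ifnar2 and Trim21). The counts of called members and genes moved by over 1.5 times in 11 of 204 recomputed values. With plain totals in place of TMM, 3 members were higher at 60 min against 0 min and 6 lower at 60 min against 30 min, and over all genes 3048 and 1672 were lower in these comparisons. Without the filter on low counts, 757 genes were lower at 30 min. Leaving out each library in turn gave 1 to 2 members higher at 30 min, with 1 without replicate 1 of 30 min. It gave 3 to 6 higher and 4 to 7 lower at 60 min against 0 min, with 3 higher without replicate 1 of 60 min. At 60 min against 30 min it gave 2 to 4 higher and 3 to 4 lower, with 4 higher without replicate 2 of 60 min. Over all genes, 290 to 523 were lower at 30 min against 0 min, with 290, 310 and 305 without replicate 1 of 0 min, replicate 2 of 30 min and replicate 3 of 30 min. The cause of these shifts was not tested. Libraries of equal replicate number did not deviate together (r between -0.0841 and 0.0242), and those of unequal number had r between -0.0603 and 0.106. These values show no pairing, but they cannot decide whether equal numbers mark libraries handled together. With a replicate block, 6 members were higher and 6 lower at 60 min against 0 min, and Ifit2 became lower at 60 min against 30 min (adjusted p = 0.0442). Ifit1, Ifit3, Usp18 and Gbp3 had few counts, and their changes could not be placed within 2-fold in at least 1 comparison.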
